A study of Mus musculus with 11 samples.

Results

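The presynaptic vesicle release machinery is the set of proteins that brings a transmitter-filled vesicle to the presynaptic membrane, readies it there and fuses it within a fraction of a millisecond of calcium entry. Its genes were measured here in the hippocampus of mice lacking the conserved interval around the non-coding exon 1b of Scn1a, the gene of the sodium channel NaV1.1. The members were chosen by symbol: synaptotagmins (Syt), syntaxins (Stx) and their binding proteins (Stxbp), Vamp and Snap proteins, complexins (Cplx), Rims, Rimbp2, Unc13, synapsins (Syn), Sv2, Pclo, Bsn, Erc and Rab3. Of the 24391 genes in the table of the heterozygous round, 76 carried such a symbol and 71 reached at least 1 CPM, the count scaled to the size of its library, in at least 1 library. Of the 24015 genes in the table of the homozygous round, 75 did and 70 were tested. Stxbp3 was matched in the heterozygous round only, so 70 members were tested in both rounds.

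The libraries came from microdissected hippocampus of 11 C57BL/6N mice, given as P32 in the study's methods and as adult in the labels, sequenced in 2 rounds. The heterozygous round, with paired-end reads, held 3 male WT and 4 1b+/- mice (replicates 1 to 3 male, replicate 4 female). The homozygous round, with single-end reads, held 2 female WT and 2 1b-/- mice (replicate 1 male, replicate 2 female). All carriers descend from 1 line made by Cas9 deletion in C57BL/6N oocytes, the deletion is constitutive in every cell, and the 1b-/- mice sampled were survivors of a genotype with early deaths. Each library is 1 mouse.

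At the synapse, the vesicle protein Vamp2 (synaptobrevin) zips together with a syntaxin such as Stx1a and with Snap25 in the plasma membrane to form the SNARE complex, which pulls the membranes into fusion. Unc13 proteins (Munc13) open the syntaxin for priming, complexins clamp and assist the assembled complex, and Syt1 or Syt2 senses calcium and triggers fusion. Rims, Rimbp2, Erc, Bsn and Pclo form the active zone, the protein mesh that positions vesicles beside calcium channels. Synapsins tether the reserve pool, Sv2 proteins and Rab3 sit on the vesicle, and Snap91 (AP180) recruits clathrin when the membrane is taken back up. In the hippocampus this machinery serves the excitatory synapses of granule and pyramidal cells and the inhibitory synapses of interneurons.

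The 300-base promoter windows of 5 members are shown because the results turn on them: Syt6, Sv2c and Syn2, the 3 members that passed the test in 1b-/-, Syn1, the family member of Syn2 with the same direction of change, and Pclo, which had the smallest p of all members in 1b+/-. The sequences are RefSeq's for the mouse build GRCm38.p6, run 5′ to 3′ on the gene's strand from 250 bases before to 50 bases after a transcription start, and are matched by symbol. Capitals mark the cAMP response element TGACGTCA and the GC box GGGCGG, both searched on either strand, so that a GC box on the other strand reads as its reverse complement.
Syn1, chrX:20920869-20921168, minus strand: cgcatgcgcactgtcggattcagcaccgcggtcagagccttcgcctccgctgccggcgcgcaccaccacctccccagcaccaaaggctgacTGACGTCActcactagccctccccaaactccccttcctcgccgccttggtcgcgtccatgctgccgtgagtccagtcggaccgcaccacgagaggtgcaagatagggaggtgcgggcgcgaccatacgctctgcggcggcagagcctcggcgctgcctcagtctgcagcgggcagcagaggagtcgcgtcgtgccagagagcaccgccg
Syn2, chr6:115134652-115134951, plus strand, the first of 2 starts: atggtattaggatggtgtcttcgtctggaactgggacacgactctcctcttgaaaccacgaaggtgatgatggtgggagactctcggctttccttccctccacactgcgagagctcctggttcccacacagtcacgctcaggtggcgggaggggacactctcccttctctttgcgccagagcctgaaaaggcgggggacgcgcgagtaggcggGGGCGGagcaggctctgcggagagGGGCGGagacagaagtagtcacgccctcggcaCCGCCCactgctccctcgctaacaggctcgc
Syt6, chr3:103574995-103575294, plus strand, the first of 3 starts: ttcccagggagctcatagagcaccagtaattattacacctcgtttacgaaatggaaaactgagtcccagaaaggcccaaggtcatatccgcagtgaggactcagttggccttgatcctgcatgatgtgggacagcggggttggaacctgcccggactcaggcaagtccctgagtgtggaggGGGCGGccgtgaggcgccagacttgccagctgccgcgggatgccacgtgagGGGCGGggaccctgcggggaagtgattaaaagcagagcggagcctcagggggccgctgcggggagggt
Sv2c, chr13:96132528-96132827, minus strand: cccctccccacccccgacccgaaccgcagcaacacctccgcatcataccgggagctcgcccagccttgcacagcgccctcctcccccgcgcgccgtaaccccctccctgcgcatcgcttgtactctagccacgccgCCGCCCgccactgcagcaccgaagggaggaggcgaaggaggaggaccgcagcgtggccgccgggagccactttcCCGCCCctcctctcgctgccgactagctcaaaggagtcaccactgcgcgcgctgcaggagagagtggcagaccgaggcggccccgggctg
Pclo, chr5:14514668-14514967, plus strand: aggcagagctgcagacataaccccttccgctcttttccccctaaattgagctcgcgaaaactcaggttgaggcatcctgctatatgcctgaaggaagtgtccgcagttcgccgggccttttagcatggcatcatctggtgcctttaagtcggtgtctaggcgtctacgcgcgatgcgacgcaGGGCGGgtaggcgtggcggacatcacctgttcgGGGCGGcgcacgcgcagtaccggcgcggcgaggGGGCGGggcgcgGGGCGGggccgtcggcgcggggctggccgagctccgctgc
The Syn1 window held 1 cAMP response element, beginning 159 bases before the start, and no GC box. The windows of Syn2, Syt6, Sv2c and Pclo held 3, 2, 2 and 4 GC boxes and no cAMP response element. A window was found for 57 of the 71 members, 71 windows in all. GC boxes stood in 49 of these 71 windows (69%) and in 35.7% of all 32851 promoter windows of the genome. The cAMP response element stood in 2 of them (Syn1 and Stxbp3), 2.82%, against 1.79% of all windows. These matches describe letters only, and binding was not measured.

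The libraries held between 20667122 and 36145161 counts. In the homozygous round depth went with genotype: 21777503 and 20667122 counts in the WT against 36145161 and 32737135 in 1b-/-. The part of depth in the results was not tested. Scn1a, the check of the labels, lay at 113 to 171 CPM in the WT and 83.4 to 119 CPM in the 1b+/- libraries of the heterozygous round, and at 134 and 173 CPM in the WT against 26.3 and 16.7 CPM in the 1b-/- libraries. The 1b+/- and WT ranges overlapped, since 1b+/- replicate 4 lay above WT replicate 2, and the test was not passed (log2 -0.47, SE 0.15, adjusted p = 0.303 by edgeR). The 1b-/- comparison passed it (log2 -2.83, SE 0.27, adjusted p = 0.0211). The coefficient of biological variation between mice was 9.13% in the heterozygous round, and it was 22.9% in the homozygous one. The WT libraries of the homozygous round stood apart in their striatal and hippocampal markers. Their summed level of 16 striatal markers was 9611 CPM in replicate 1 and 4046 CPM in replicate 2, against 479 to 528 CPM in 1b-/- and 376 to 648 CPM across the heterozygous round. Markers of CA3 pyramidal cells summed to 287 and 300 CPM in them against 1024 to 1118 CPM in 1b-/- and 599 to 763 CPM in the heterozygous round. In the 1b-/- comparison all 16 striatal markers were lower (12 passing the test), 9 of 9 oligodendrocyte markers were lower (2 passing), 7 of 9 basal forebrain cholinergic markers were lower (4 passing), 8 of 8 CA3 markers were higher (4 passing), 7 of 8 CA1 markers were higher (3 passing) and 8 of 11 dentate granule cell markers were higher (5 passing). No marker passed in the heterozygous comparison. Of 15 interneuron markers 2 passed as lower and 1 as higher, 2 of 8 neocortical markers passed as lower, and astrocyte, microglial, thalamic and choroid plexus markers gave 0 passing genes. Microglial markers had lower estimates in 8 of 8. Choroid plexus markers set 1 mutant library apart: they summed to 13658 CPM in 1b-/- replicate 2 and 60.9 CPM in replicate 1, against 54.2 and 3426 CPM in the WT of that round and 59.8 to 2656 CPM in the heterozygous round. Dentate granule cell markers summed to 382 and 421 CPM in this WT pair, against 518 to 608 CPM in 1b-/- and 481 to 578 CPM in the heterozygous round. Most of the sum in the pair came from Calb1, Pdzd2 and Dock10. These were the 3 dentate markers with lower estimates in 1b-/- (log2 -0.50, -0.78 and -0.33, none passing the test). Prox1, the transcription factor that marks granule cells, lay at 14.9 to 15.4 CPM in the pair, against 49.2 to 56.1 CPM in 1b-/- and 41.5 to 68.4 CPM in the heterozygous round. C1ql2, a protein secreted by granule cells, lay at 1.78 to 1.85 CPM in the pair, against 71.7 to 79.0 CPM in 1b-/- and 33.8 to 47.1 CPM in the heterozygous round. The part of these libraries in the results on 1b-/- was not tested, and fewer cells of a type and less RNA per cell cannot be told apart in bulk tissue.

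**Figure D1:**
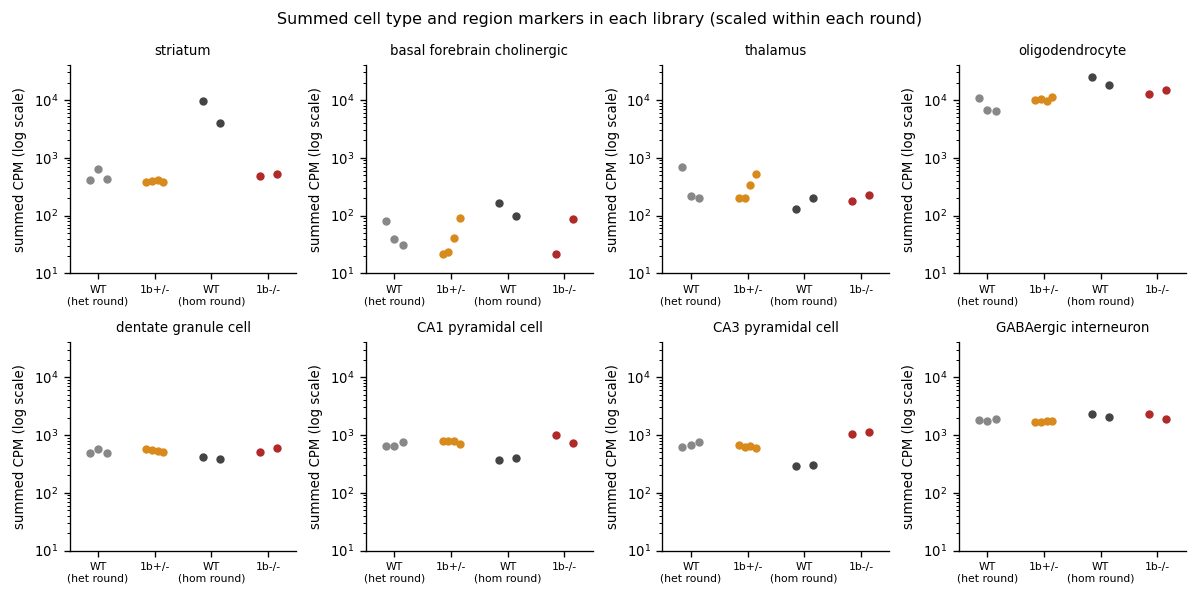
Summed CPM of 8 marker lists in each library, on a log scale, by genotype and round. Each point is 1 library. The 2 WT libraries of the homozygous round lie at 9611 and 4046 CPM for striatal markers, above every other library, and at 287 and 300 CPM for CA3 markers, below every other library. Thalamic markers are highest in WT replicate 1 (690.2 CPM) and 1b+/- replicate 4 (519 CPM) of the heterozygous round.

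Levels of different genes were compared per kilobase of exon (RPKM, from TMM-scaled CPM and the union of annotated exons). Across the 3 WT mice sequenced in the heterozygous round the core fusion proteins were among the most abundant members: Cplx2 at a mean of 370.4 RPKM, Vamp2 at 304, Snap25 at 262 and Cplx1 at 229. Vesicle proteins followed, with Rab3a at 193 and Syn1 at 181 RPKM, and the calcium sensor Syt1 lay at 190 RPKM. Stx1a (49.7 RPKM) was below its SNARE partners Vamp2 and Snap25 per length. The active zone scaffolds were lower still, with Bsn at 35.6 and Pclo at 12.7 RPKM. Among paralogs, Vamp1 stood at 11.998 RPKM against 304 for Vamp2, and Syt2 at 2.66 RPKM against 190 for Syt1. In the homozygous round the same genes led the WT order, with Cplx1 at 433, Vamp2 at 377, Snap25 at 361 and Cplx2 at 357 RPKM.

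Of the members under the filter, Vamp7 was listed at 0 counts in all 11 libraries. If its row could collect reads, this allows at most 3 counts in each. Its symbol had no match in the annotation that gave exon lengths. Whether the row could collect reads was not tested, so these values do not show that the gene is silent. Cplx4, a complexin of retinal ribbon synapses, had at most 4 counts in any library of the heterozygous and 1 of the homozygous round. The highest counts in those rounds were 7 and 7 for Stx11, 4 and 1 for Stx19, and 1 and 5 for Syt8.

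Heterozygous deletion left the members close to WT. In the quasi-likelihood test of edgeR, with p-values adjusted by Benjamini-Hochberg over all 14630 genes, none of 71 members passed an adjusted p of 0.05, nor did any gene tested (0%). At an unadjusted p of 0.05, 10 members differed (14.1%), 7 lower and 3 higher, beside 11.3% of all genes. The likelihood ratio test called 1 member, beside 1.31% of all genes, and DESeq2 called 4, beside 1.67%. In 8 of 71 members the groups did not overlap (6 lower, 2 higher), a share of 11.3% beside 10.9% of all genes. The median log2 fold change of the members was 0.0096, against 7e-04 over all genes, and the members ranged from -0.41 to 0.39. The plot of changes by role shows that most members of each role lay within 0.2 of 0 on the log2 scale in this comparison.

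**Figure D2:**
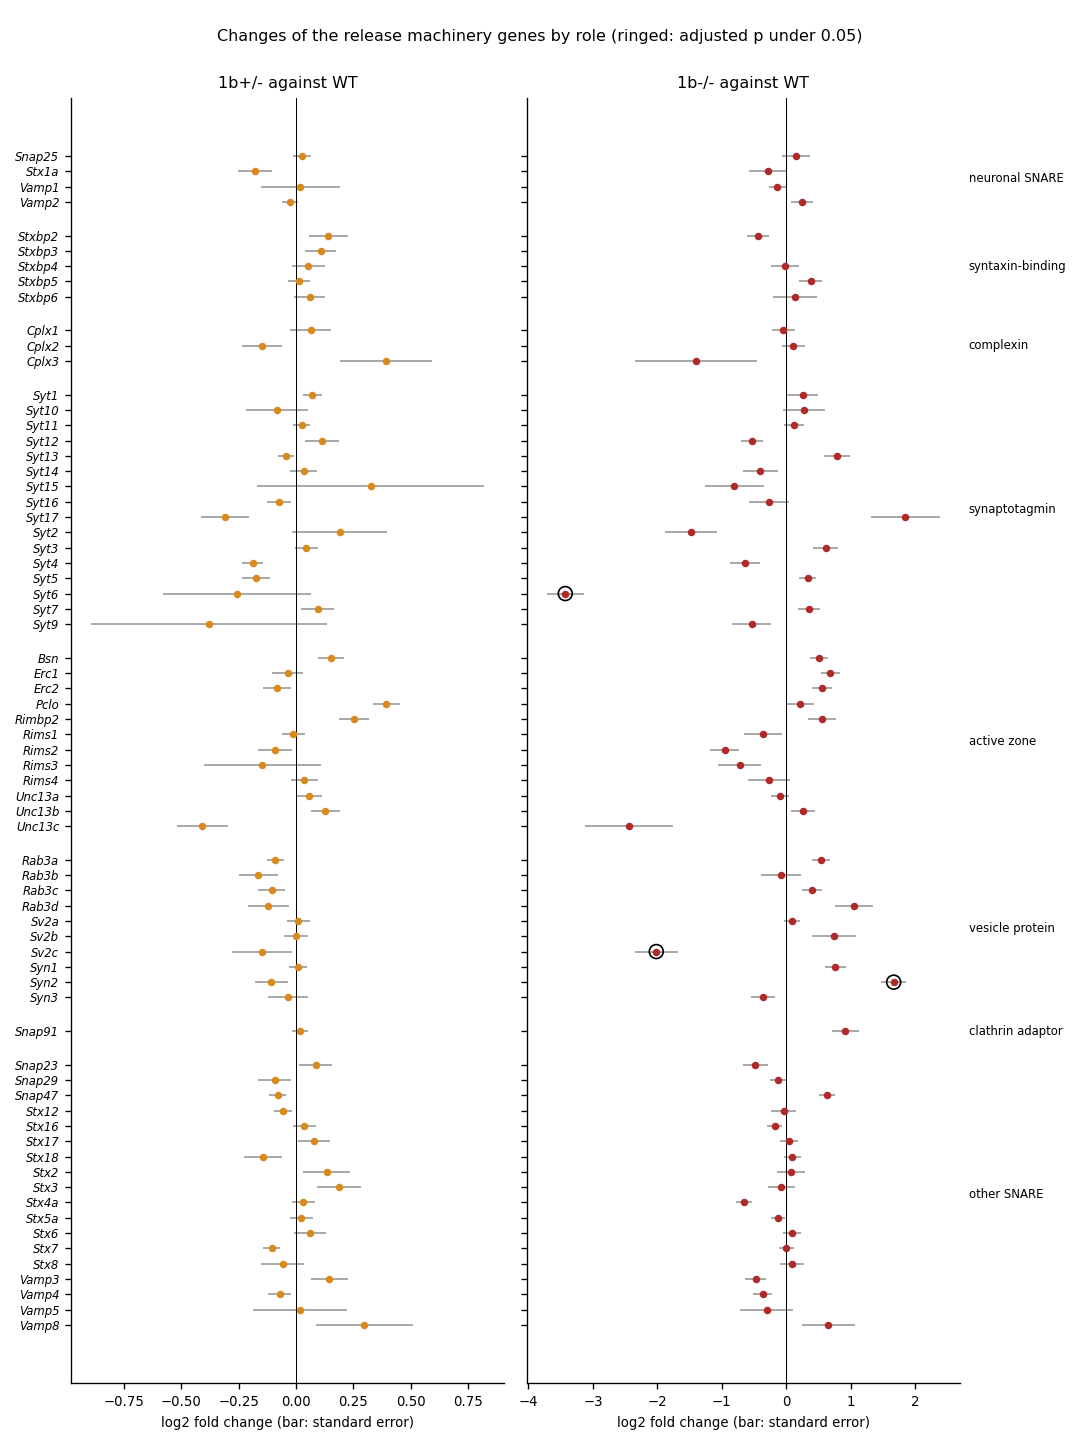
Log2 fold change of 69 of the 71 tested members against the WT mice of its own round, with 1b+/- on the left and 1b-/- on the right, on axes of different width, grouped by role. Points are estimates of the quasi-likelihood fit, bars are standard errors, and rings mark members with an adjusted p under 0.05: none on the left, and Syt6, Sv2c and Syn2 on the right.

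Among the active zone proteins, the giant scaffold Pclo (Piccolo), which organises the presynaptic cytomatrix, showed the clearest difference in 1b+/-. It lay at 279, 264 and 238 CPM in the WT and at 364, 343, 326 and 333 CPM in the 1b+/- libraries. Every 1b+/- library was above every WT library. The change was 1.31-fold (log2 0.39, SE 0.06), with an adjusted p of 0.0777, the smallest of all members. Rimbp2, which links Rims to calcium channels, lay at 110.2, 109 and 99.5 CPM in the WT and at 135, 132, 127 and 113 CPM in the 1b+/- libraries. These groups did not overlap either (log2 0.25, SE 0.07, adjusted p = 0.221). Bsn (Bassoon), the partner scaffold of Pclo, lay at 574, 592 and 534 CPM in the WT and 635, 655, 658 and 574 CPM in the 1b+/- libraries. Its groups overlapped through 1b+/- replicate 4 (log2 0.15, SE 0.06, adjusted p = 0.354). Unc13c (Munc13-3), a priming factor known best from cerebellar granule cells, had the opposite sign. It lay at 72.4, 64.7 and 61.8 CPM in the WT and 43.3, 43.2, 57.0 and 56.3 CPM in the 1b+/- libraries, with no overlap (log2 -0.41, SE 0.11, adjusted p = 0.237). Of the 12 active zone genes, 4 had an unadjusted p under 0.05 (33.3%, beside 11.3% of all genes), 3 higher and 1 lower. The remaining 8, among them Rims1, Rims2, Erc1, Erc2 and Unc13a, lay between -0.15 and 0.13 on the log2 scale.

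Among the synaptotagmins, 3 of 16 had an unadjusted p under 0.05 in 1b+/- (18.8%, beside 11.3% of all genes), and all 3 were lower. Syt4, a synaptotagmin of dense-core and dendritic vesicles, lay at 233, 249.8 and 258 CPM in the WT and at 207, 223, 223 and 214 CPM in the 1b+/- libraries. All 4 libraries of 1b+/- were below the lowest WT library (log2 -0.19, SE 0.05, adjusted p = 0.181). Syt17, a member that lacks a membrane-spanning part, lay at 47.3, 58.8 and 63.6 CPM in the WT and 41.1, 50.7, 48.2 and 42.5 CPM in the 1b+/- libraries. Replicates 2 and 3 of 1b+/- lay above WT replicate 1, so the groups overlapped (log2 -0.31, SE 0.11, adjusted p = 0.328). Syt5 lay at 103, 117 and 122 CPM in the WT and 102, 105, 101 and 95.9 CPM in the 1b+/- libraries (log2 -0.17, SE 0.06, adjusted p = 0.344). The fast calcium sensor Syt1 ran from 1534 to 1629 CPM in the WT and from 1593 to 1704 CPM in 1b+/-, which overlapped (log2 0.07, SE 0.04).

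The SNAREs and vesicle proteins gave 3 more members with small changes. Stx1a, the plasma membrane SNARE, lay at 130.4, 142 and 126 CPM in the WT and 114, 132, 117 and 106 CPM in the 1b+/- libraries, which overlapped (log2 -0.18, SE 0.07, adjusted p = 0.396). Stx7, a syntaxin of endosomes, lay at 122.7, 121 and 124 CPM in the WT and 117, 110.4, 113 and 115 CPM in the 1b+/- libraries. Rab3a, the small GTPase of synaptic vesicles, lay at 431, 412 and 449 CPM in the WT and 408, 405, 408 and 397 CPM in the 1b+/- libraries. Neither Stx7 (log2 -0.11, SE 0.04, adjusted p = 0.333) nor Rab3a (log2 -0.09, SE 0.04, adjusted p = 0.408) overlapped, but both changes were under 10 percent. The core fusion genes Vamp2 and Snap25 had log2 fold changes near 0, at -0.03 (SE 0.04) and 0.03 (SE 0.04). No complexin and no syntaxin-binding gene had an unadjusted p under 0.05. In these 2 roles the smallest p belonged to Cplx3 and Stxbp2. Cplx3 lay at 11.1, 5.95 and 10.5 CPM in the WT and 14.5, 11.1, 11.95 and 10.6 CPM in 1b+/-, which overlapped (log2 0.39, SE 0.20). Stxbp2 lay at 21.0, 24.5 and 24.2 CPM in the WT and 26.3, 27.2, 22.2 and 26.7 CPM in 1b+/-, which also overlapped (log2 0.14, SE 0.09).

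**Figure D3:**
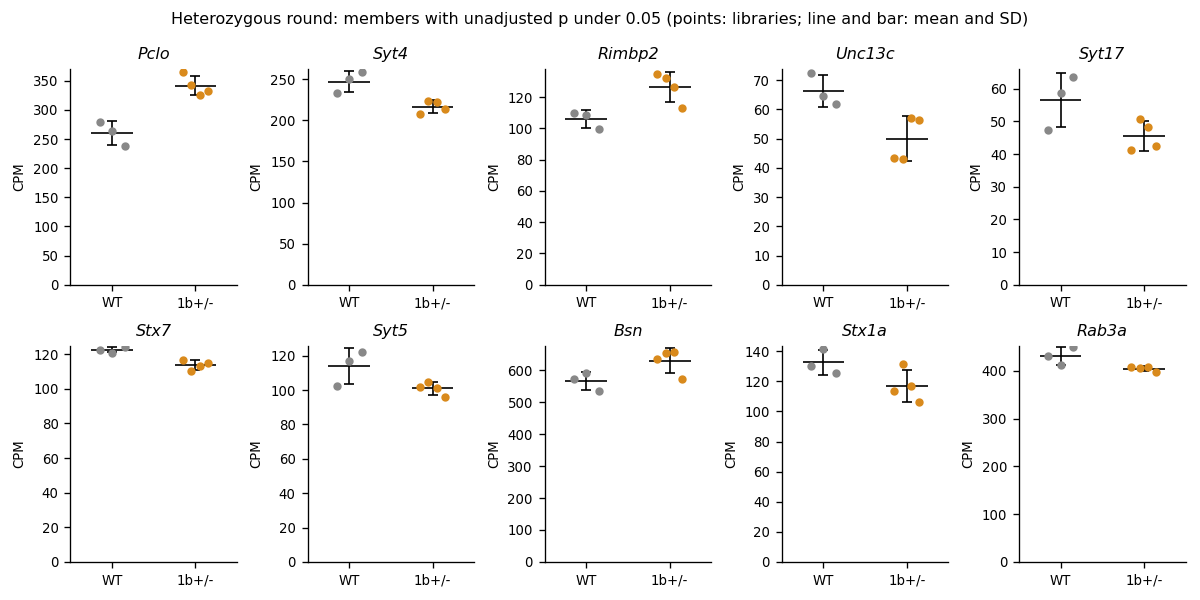
CPM of the 10 members with an unadjusted p under 0.05 in the heterozygous round, in order of p, for 3 WT and 4 1b+/- libraries. Points are libraries, the horizontal line is the mean and the bar the SD, and every axis starts at 0. Pclo and Rimbp2 are higher and Syt4, Unc13c, Stx7 and Rab3a are lower in all 1b+/- libraries than in all WT libraries.

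Some members varied more between mice of 1 genotype than between genotypes. Several that were highest in the same 2 libraries of the heterozygous round are given here. In WT replicate 1 and 1b+/- replicate 4, Vamp1, the vesicle SNARE best known from brainstem and spinal cord, lay at 139 and 130.4 CPM, against 84.6 to 102 CPM in the other 5 libraries. Syt9 lay at 37.1 and 39.7 CPM in these libraries against 7.13 to 20.02 CPM, and Rims3 at 33.0 and 30.5 CPM against 16.4 to 19.3 CPM. Syt6 was likewise highest there, at 16.3 and 19.6 CPM against 6.86 to 12.5 CPM. So were Rims2 (135.5 and 127.8 CPM against 107 to 119 CPM) and Cplx1 (572 and 575 CPM against 433 to 523 CPM). All these genes were picked after their values were seen. The same 2 libraries had the highest sums of the 8 thalamic markers (690.2 and 519 CPM against 199 to 339 CPM) and of the basal forebrain cholinergic markers (81.6 and 91.8 CPM against 22.0 to 41.2 CPM). The part of these markers in the spread was not tested. With WT replicate 1 left out, 4 members were called by the same test in 1b+/- (Pclo higher, and Syt4, Syt5 and Syt17 lower), among 421 genes in all (2.89% of those tested). Beside the 1b+/- values above, striatal markers summed to 376 to 407 CPM in 1b+/- and 409 to 648 CPM in WT (12 of 13 tested with lower estimates, 0 passing). Oligodendrocyte markers summed to 9443 to 11114 CPM in 1b+/- and 6583 to 10844 CPM in WT (9 of 9 with higher estimates, 0 passing).

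Homozygous deletion was accompanied by larger differences. Of 70 members, 3 passed an adjusted p of 0.05 (4.29%, beside 3.58% of all genes): Syt6 and Sv2c were lower and Syn2 was higher in 1b-/-. At an unadjusted p of 0.05, 22 members differed (31.4%, beside 26.4% of all genes), 10 lower and 12 higher. The groups did not overlap in 43 of 70 members (61.4%, 21 lower and 22 higher), beside 59.7% of all genes, so these shares lay near the background. The median log2 fold change of the members was 0.06, against -0.0013 over all genes. Without WT replicate 1, which leaves a single WT library, none of the 70 members passed the quasi-likelihood test, nor did any other gene. The likelihood ratio test called 16 members, beside 12.3% of all genes, and DESeq2 called 17, beside 14.4%.

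Syn2 (synapsin II, mm9 chromosome 6, 115084920 to 115232644, plus strand), which tethers vesicles of the reserve pool, lay at 244 and 326 CPM in the WT and at 844 and 961 CPM in 1b-/-. Both 1b-/- libraries were above both WT libraries, and the change was 3.17-fold (log2 1.67, SE 0.20, adjusted p = 0.0276). Scaled over all 11 libraries, the WT mean of the heterozygous round was 823 CPM, nearer to 1b-/- (883 CPM) than to the WT of its own round (280.25 CPM). Syn1 (synapsin I), which does the same at most terminals, lay at 726 and 836 CPM in the WT and at 1301 and 1341 CPM in 1b-/- (log2 0.76, SE 0.16, adjusted p = 0.0704). On the joint scale its 1b-/- mean (1292 CPM) was above the WT means of both rounds, 615 CPM in the heterozygous and 769 CPM in the homozygous round. Syn3, the least abundant synapsin, was at 54.6 and 59.4 CPM in the WT and 37.3 and 51.4 CPM in 1b-/- (log2 -0.36, SE 0.19).

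Sv2c, the vesicle glycoprotein known for its enrichment in the basal ganglia (mm9 chromosome 13, 96729398 to 96902532, minus strand), lay at 48.1 and 25.4 CPM in the WT and at 8.58 and 9.59 CPM in 1b-/-. It was 4.05-fold lower in 1b-/- (log2 -2.02, SE 0.33, adjusted p = 0.0466). The WT library with the higher Sv2c was also that with the higher striatal sum (9611 CPM). On the joint scale the heterozygous-round WT mean (17.9 CPM) was nearer to 1b-/- (8.89 CPM) than to the homozygous-round WT (36.2 CPM). The difference in nearness was clear in CPM only, since on a log scale this mean lay almost midway. Its relatives did not pass the test: Sv2a was at 379 and 405 CPM in the WT and 428 and 407 CPM in 1b-/- (log2 0.09, SE 0.13), and Sv2b at 203 and 415 CPM in the WT and 522 and 511 CPM in 1b-/- (log2 0.74, SE 0.34). Of the Rab3 GTPases, Rab3a lay at 539 and 529 CPM in the WT and 821 and 729.5 CPM in 1b-/- (log2 0.54, SE 0.15, adjusted p = 0.102). Its joint-scale mean in 1b-/- (759 CPM) was above both WT means (442 and 525 CPM). Of the 10 vesicle proteins, 5 had an unadjusted p under 0.05 in 1b-/- (50%, beside 26.4% of all genes). Of these, 4 were higher (Syn1, Syn2, Rab3a and Rab3d) and 1 was lower (Sv2c).

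Syt6 (mm9 chromosome 3, 103379154 to 103449490, plus strand), a synaptotagmin that does not serve as the fast sensor at synapses, changed most of all members. It lay at 144 and 84.7 CPM in the WT and at 10.6 and 10.7 CPM in 1b-/-, with no overlap, 10.8-fold lower (log2 -3.43, SE 0.29, adjusted p = 0.0207). As with Sv2c, WT replicate 1 was the higher library, and the heterozygous-round WT mean on the joint scale (13.8 CPM) was nearer to 1b-/- (10.4 CPM) than to the homozygous-round WT (113 CPM). Of the 16 synaptotagmins, 7 had an unadjusted p under 0.05 (43.8%, beside 26.4% of all genes). Of these, 4 were lower (Syt2, Syt4, Syt6 and Syt12) and 3 higher (Syt3, Syt13 and Syt17). Syt17 lay at 7.45 and 25.3 CPM in the WT and 60.5 and 57.4 CPM in 1b-/- (log2 1.85, SE 0.54, adjusted p = 0.117). Without WT replicate 2 the Syt17 estimate was 2.98, the highest of its alternatives, and the lowest was 1.22. Its joint-scale WT mean in the heterozygous round (58.1 CPM) was close to 1b-/- (57.7 CPM) and over that of the homozygous-round WT (16.1 CPM). Syt4 lay at 152 and 197 CPM in the WT and 133 and 90.5 CPM in 1b-/- (log2 -0.64, SE 0.23, adjusted p = 0.165), and Syt5 at 158 and 156 CPM in the WT and 213 and 182 CPM in 1b-/- (log2 0.33, SE 0.13, adjusted p = 0.189). The calcium sensors of fast release gave Syt1 at 1079 and 1529 CPM in the WT and 1726 and 1387 CPM in 1b-/-, which overlapped, and Syt2 at 38.6 and 21.9 CPM in the WT and 14.0 and 7.62 CPM in 1b-/- (log2 -1.48, SE 0.40, adjusted p = 0.102).

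In the active zone, the ELKS proteins Erc1 and Erc2, which bind Rims and Bsn, had higher values in both 1b-/- than in both WT libraries. Erc1 lay at 53.3 and 66.0 CPM in the WT and 96.0 and 94.9 CPM in 1b-/- (log2 0.68, SE 0.15, adjusted p = 0.0707), the smallest p of the 12 active zone genes. Erc2 lay at 126 and 148 CPM in the WT and 183 and 220.4 CPM in 1b-/-, and Bsn at 329 and 378 CPM in the WT and 486 and 519.9 CPM in 1b-/- (adjusted p = 0.106 and 0.109). For Erc1, Erc2 and Bsn the heterozygous-round WT means (113, 254 and 582 CPM) were above the 1b-/- means on the joint scale (93.4, 197 and 492 CPM). Pclo, the member with the smallest p in 1b+/-, lay at 170.0 and 255 CPM in the WT and 240.4 and 254 CPM in 1b-/-, which overlapped (log2 0.22, SE 0.21, adjusted p = 0.551). Rims2 was at 145 and 202 CPM in the WT and 102 and 77.1 CPM in 1b-/- (log2 -0.96, SE 0.22, adjusted p = 0.0789). Unc13c was at 157 and 101 CPM in the WT and 38.5 and 8.90 CPM in 1b-/- (log2 -2.44, SE 0.69, adjusted p = 0.11). The Unc13c estimate was -3.86 without 1b-/- replicate 1 and -1.74 without 1b-/- replicate 2, so its size rests on which mouse is kept. The main hippocampal priming factor Unc13a overlapped between groups, at 493 and 445 CPM in the WT and 427 and 449 CPM in 1b-/- (log2 -0.10, SE 0.14).

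None of the 5 neuronal SNAREs had an unadjusted p under 0.05 in 1b-/-. Vamp2 was at 1432 and 1438 CPM in the WT and 1826 and 1570.3 CPM in 1b-/-, with no overlap (log2 0.24, SE 0.17, adjusted p = 0.418), the smallest p in this role. Snap25, Stx1a and Vamp1 overlapped between groups. Stx1a was at 169 and 253 CPM in the WT and 214 and 133 CPM in 1b-/- (log2 -0.28, SE 0.30). Of the complexins, Cplx3, which is found in few neuron types, differed between the 2 mutant mice: 22.1 CPM in replicate 1 and 2.16 CPM in replicate 2, against 33.8 and 30.6 CPM in the WT (log2 -1.40, SE 0.94). The Cplx3 estimate became -3.89 without 1b-/- replicate 1 and -0.54 without 1b-/- replicate 2, so it rests on which mouse is kept. Stxbp2 (Munc18-2), the binding protein of non-neuronal syntaxins, was at 63.7 and 52.9 CPM in the WT and 38.6 and 47.7 CPM in 1b-/- (log2 -0.43, SE 0.17, adjusted p = 0.185).

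Outside the neuronal SNAREs, 3 of 18 had an unadjusted p under 0.05 (16.7%, beside 26.4% of all genes): Stx4a and Vamp3 lower and Snap47 higher. Stx4a, the syntaxin of constitutive secretion in many cell types, was at 63.8 and 61.9 CPM in the WT and 37.8 and 41.9 CPM in 1b-/- (log2 -0.66, SE 0.12, adjusted p = 0.0578). On the joint scale the heterozygous-round WT mean (29.1 CPM) lay beyond 1b-/- (38.9 CPM) in the same direction. Stx7 was at 103 and 116 CPM in the WT and 108 and 110.2 CPM in 1b-/-, with a log2 fold change of -0.0018 (SE 0.12). Snap91, the clathrin adaptor, was at 209 and 303 CPM in the WT and 466 and 498 CPM in 1b-/- (log2 0.91, SE 0.21, adjusted p = 0.0774), with a heterozygous-round WT mean of 450.35 CPM on the joint scale beside 471 CPM in 1b-/-. Of the 22 members with an unadjusted p under 0.05, the heterozygous-round WT mean was nearer to 1b-/- than to the homozygous-round WT in 13, beside 54.6% of all such genes. Read type and round cannot be told apart in these joint-scale means, and Syt14, at 33.7 and 34.5 CPM in both genotypes of the heterozygous round and 6.42 and 4.82 CPM in those of the homozygous round, shows the size a round difference can reach.

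**Figure D4:**
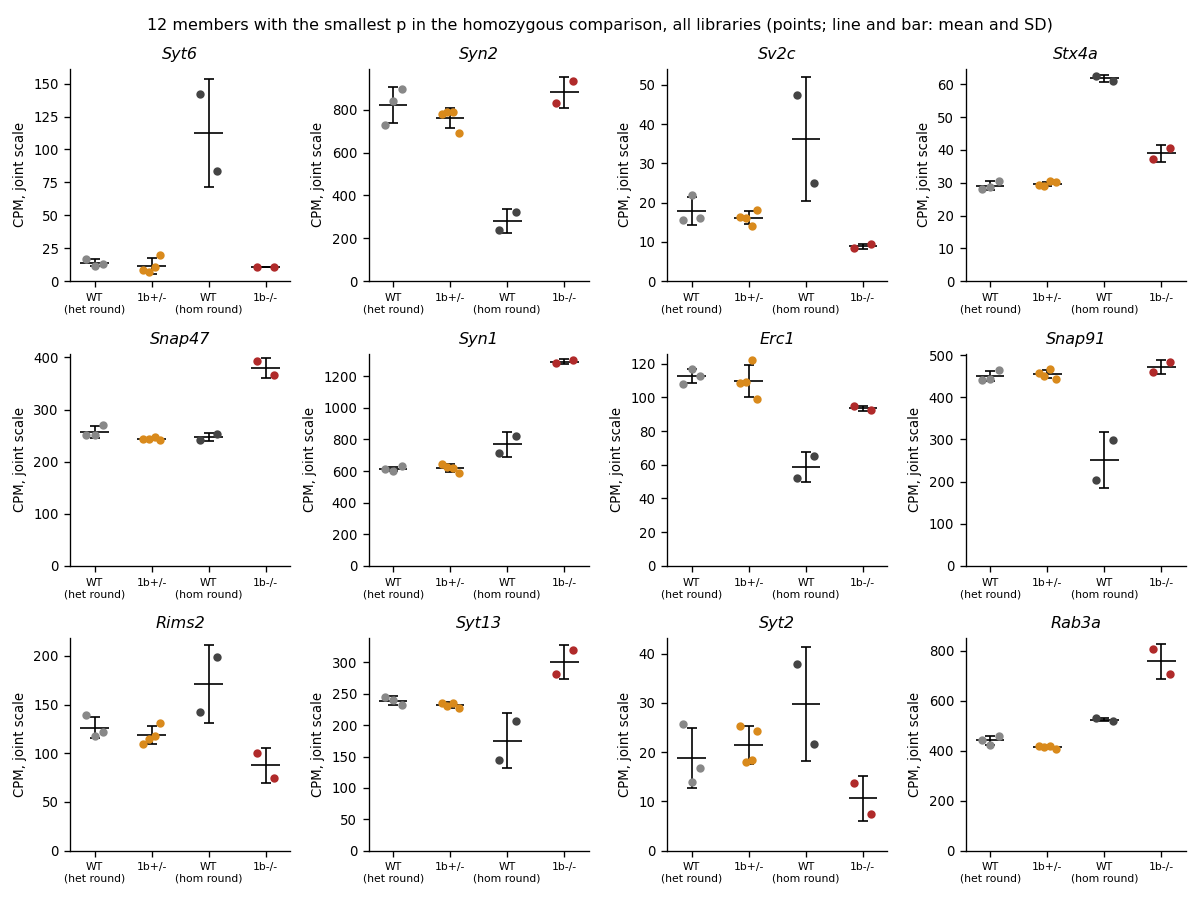
CPM on a scale shared by all 11 libraries for the 12 members with the smallest p in the homozygous round, by genotype and round. Points are libraries, with the mean and SD, and every axis starts at 0. For Syt6, Syn2 and Snap91 the heterozygous-round WT libraries lie nearer to 1b-/- than to the WT of the homozygous round. For Sv2c this holds for the mean only, which on a log scale is almost midway. WT replicate 2 of the heterozygous round (21.9 CPM) lies near WT replicate 2 of the homozygous round (25.1 CPM). Syn1, Rab3a and Snap47 in 1b-/- lie above both WT groups.

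The change in 1b-/- was tested against the change in 1b+/- in 1 fit over the 4 groups. It differed in 24 of 70 members (34.3%, beside 27.3% of all genes tested), 14 with the higher and 10 with the lower change in 1b-/-. The difference was largest for Syt6 (log2 -3.18, SE 0.54, adjusted p = 0.00248) and Syt17 (log2 2.15, SE 0.48, adjusted p = 0.00854), and it was 1.76 for Syn2 (SE 0.18, adjusted p = 0.000183). Rab3a and Syt5 were among these 24, with log2 differences of 0.62 (SE 0.09, adjusted p = 0.00154) and 0.50 (SE 0.12, adjusted p = 0.0143). In both, the estimate was below 0 in 1b+/- and above 0 in 1b-/-. For Pclo the difference of the changes was -0.18 (SE 0.19, adjusted p = 0.512). By role, 6 of 10 vesicle proteins, 7 of 16 synaptotagmins, 4 of 12 active zone genes, 4 of 18 other SNAREs, 2 of 5 syntaxin-binding genes and Snap91 passed, and 0 of 5 neuronal SNAREs and 0 of 3 complexins did. At an unadjusted p under 0.05 the last 2 counts were 1 (Vamp2) and 0. Each of these differences contains the homozygous-round WT libraries described above.

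Ratios of related genes within a library do not depend on the scaling of libraries, and 12 were compared by two-sided exact permutation tests, of which 11 are given here. In the heterozygous round these 11 overlapped between genotypes, and none passed the test (exact p between 0.229 and 0.886 over 35 splits, 0.886 after adjustment over the 12 in every case). The smallest p of the 11 belonged to Syn2/Syn1, whose count ratio ran from 1.196 to 1.425 in the WT and from 1.186 to 1.278 in 1b+/-. In the homozygous round the exact test over 6 splits cannot go below 0.333, so its ratios are a description. There Syn2 per Syn1 ran from 0.336 to 0.39 in the WT and 0.649 to 0.717 in 1b-/-, while Syn3 per Syn1 fell outside the WT range on the other side, at 0.071 to 0.0753 in the WT and 0.0287 to 0.0383 in 1b-/-. Sv2c per Sv2a was 0.0627 to 0.127 in the WT and 0.0201 to 0.0236 in 1b-/-, and Sv2b per Sv2a was 0.534 to 1.023 in the WT and 1.22 to 1.25 in 1b-/-. Syt2 per Syt1, Vamp1 per Vamp2 and Rims2 per Rims1 also lay lower in both 1b-/- libraries than in both WT libraries, and Unc13b per Unc13a higher. The ratios Cplx1/Cplx2, Rab3c/Rab3a and Erc2/Erc1 overlapped in both rounds.

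**Figure D5:**
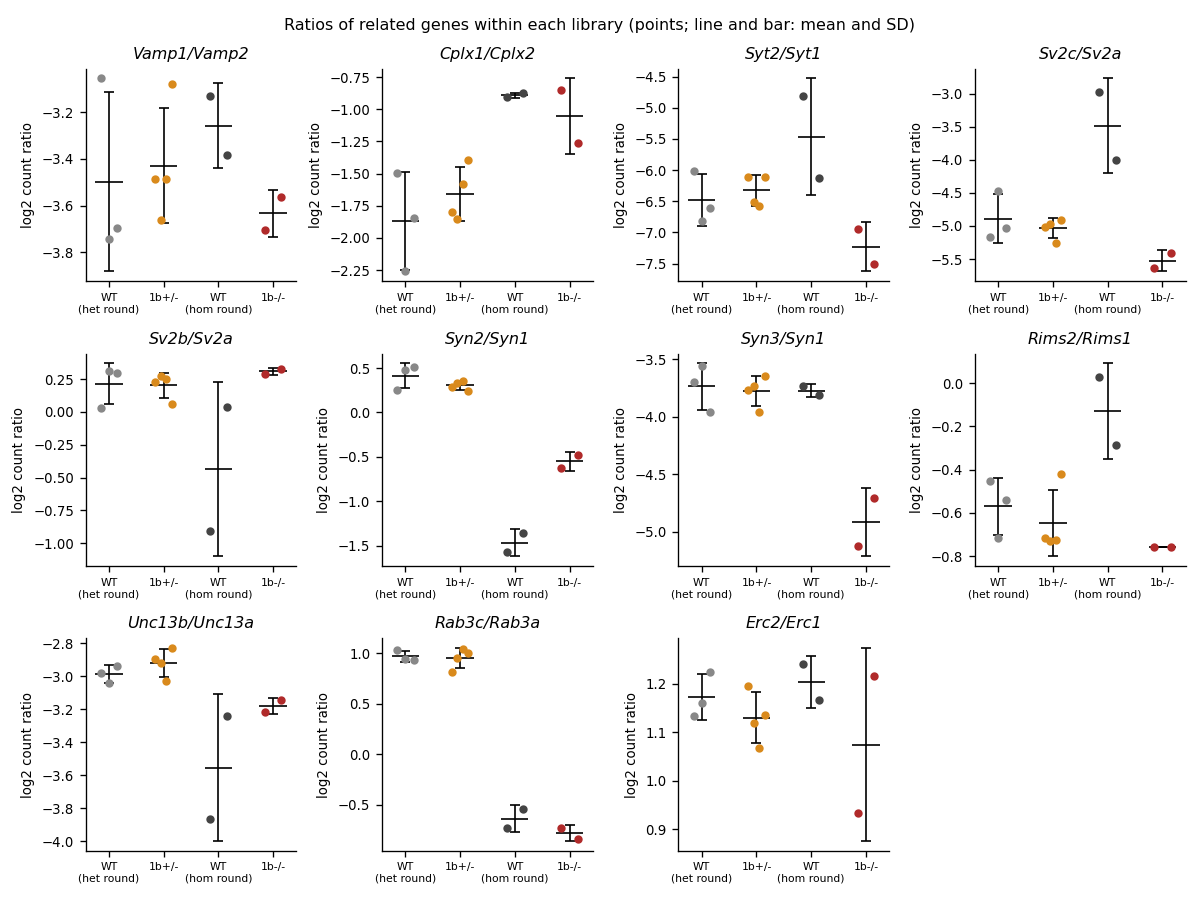
Log2 ratio of the counts of 2 related genes in each library, for 11 pairs, by genotype and round. Points are libraries, with the mean and SD. In the heterozygous round the genotypes overlap in all 11 pairs, and in the homozygous round 8 pairs separate: 5 lower and 3 higher in 1b-/-. Separation of 2 against 2 libraries has an exact permutation p of 0.333. Of all single genes, 59.7% also did not overlap in that round, and no share over other gene pairs was computed.

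Other genes of the vesicle cycle, 50 in all, were counted beside the members: transmitter transporters, tethering and priming factors, liprins, and the clathrin and dynamin proteins of membrane retrieval. In 1b+/- 0 of 50 passed the quasi-likelihood test and 7 had an unadjusted p under 0.05 (14%, beside 11.3% of all genes), 5 lower and 2 higher. The smallest p belonged to Slc32a1, the vesicular GABA transporter, at 74.6 ± 6.92 CPM in the WT and 61.6 ± 3.16 CPM in 1b+/- (SD, n = 3 and 4 mice, log2 -0.28, SE 0.07, adjusted p = 0.183 by edgeR). Stxbp5l, the syntaxin-binding tomosyn-2, was at 197 ± 10.4 and 226 ± 10.7 CPM (log2 0.20, SE 0.05), and Cadps2, a priming factor of dense-core vesicles, at 125 ± 12.9 and 105 ± 4.81 CPM (log2 -0.26, SE 0.07). Of the 15 interneuron markers, 12 had lower and 3 higher estimates in the same mice, with none passing.

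In 1b-/- 3 of the 50 passed (6%, beside 3.58% of all genes), with Dnm1 and Ap2a2 higher and Dnm3 lower. Dnm1, the dynamin that cuts vesicles from the presynaptic membrane, was at 994 ± 76.1 CPM in the WT and 1964 ± 75.5 CPM in 1b-/- (SD, n = 2 mice each, log2 0.98, SE 0.17, adjusted p = 0.0499 by edgeR). Ap2a2, a subunit of the clathrin adaptor AP2, was at 126 ± 12.97 and 264 ± 45.3 CPM (log2 1.07, SE 0.17, adjusted p = 0.0429), and Dnm3 at 207 ± 9.77 and 125 ± 2.30 CPM (log2 -0.73, SE 0.12, adjusted p = 0.0429). At an unadjusted p of 0.05, 26 of 50 differed (52%, beside the 26.4% of all genes given above), 22 of them higher, and the median log2 fold change was 0.34. The CA1, CA3 and dentate markers were mostly higher in the same comparison, with median log2 fold changes of 1.06, 1.88 and 2.48. Their part in this was not tested.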

How the data were processed

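Each round has a table of raw gene counts, which the authors deposited with neither normalization nor filter. Per the study's methods and the submitters' processing notes, reads of stranded mRNA libraries were aligned with STAR 2.7.2 to mm9, and featureCounts gave the counts. The strand setting is not given in the sources used here, so genes that overlap others are uncertain. No column was left unused. Values of 2 members and 1 ratio are not reported here.

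Counts were fitted here with edgeR 4.0.16 (R 4.3.3) over all genes of a round that reached 1 CPM in any library, with TMM factors, glmQLFit and glmQLFTest, genotype as the only term and Benjamini-Hochberg adjustment at 0.05. Members, gene lists and tests were chosen with earlier results of these data known. Named were members past the threshold, members with an unadjusted p under 0.05 in 1b+/-, the smallest p of each role, the genes of 12 ratios, and 3 genes of the wider vesicle cycle in each comparison. CPM is TMM-scaled within a round unless the scale over 11 libraries is named. Exon lengths came from the GENCODE annotation of mm9. Standard errors are the log2 fold change over the square root of F. Alternatives were a likelihood ratio test, DESeq2 1.42.0, other size factors (RLE, upper quartile), other filters on low counts, sex as a term, 1 fit of every library and the removal of each library. In each round 1 mutant mouse was the only one of its sex. A sex term within a round therefore sets that mouse aside, as its removal does, and cannot adjust for sex. An offset for exon length was chosen after seeing the data.

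On counts simulated from the real means, the fit recovered 75.8%, 92.9% and 98.5% of 1.5-, 2- and 4-fold changes in the heterozygous design (14630 genes, 12 false calls), and 0%, 24.6% and 80% in the homozygous design (14838 genes, 11 false calls).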

Additional observations from a re-analysis of the deposited data

Results flagged for a closer look

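Of 47 sets of 4 values from the 1b+/- mice (35 named members and 12 ratios), 4 held a library far from the other 3, where chance gives about 1 in 20. Stxbp2 was lowest in replicate 3 (22.2 CPM) and Syn3 was lowest in the same library (38.7 CPM). Syn2 was lowest in replicate 4 (676 CPM), and the log2 count ratio of Rims2 to Rims1 was highest in that library (-0.42). Replicate 4 is the only female of its round, and also 1 of the 2 libraries with the highest thalamic and basal forebrain cholinergic marker sums. The other, the male WT replicate 1, had the lowest Syn2 of the WT libraries (712 CPM against 818 and 874 CPM). It also had their highest count ratio of Rims2 to Rims1 (0.7296). The part of sex and of these markers was not tested.

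The change in 1b-/- differed from the change in 1b+/- by the test of the difference itself in 16 of the 35 named members. All values are log2 differences with an adjusted p under 0.05 in the edgeR fit over 4 groups. Named members were picked partly by their p in these same data, so their share cannot be set against that of all genes. Over all 70 members tested the count was 24 (34.3%), beside 27.3% of all genes tested. The change was the higher one in 1b-/- for Syt17 (2.15), Syn2 (1.76), Snap91 (0.89), Syn1 (0.74), Erc1 (0.71), Erc2 (0.63), Rab3a (0.62), Syt5 (0.50) and Rab3c (0.50). It was the lower one for Syt6 (-3.18), Unc13c (-2.03), Sv2c (-1.88), Syt2 (-1.68), Rims2 (-0.87), Stx4a (-0.70) and Stxbp2 (-0.58). These contrasts rest on the WT pair with high striatal markers, whose part in them was not tested.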

How the results depend on the processing

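In 1b+/- the count of members called, 0, rose to 1 with the likelihood ratio test, 4 with DESeq2 and 1 with no filter on low counts (1.31%, 1.67% and 0.219% of all genes were called), and ran from 0 to 4 when each library was left out (4 without WT replicate 1, beside 2.89% of all genes). In 1b-/- the count, 3, became 16 with the likelihood ratio test, 17 with DESeq2, 7 with no filter, 8 with sex as a term, 31 with all 11 libraries in 1 fit and 5 with an offset for exon length (12.3%, 14.4%, 5.42%, 4.87%, 37.2% and 3.59% of all genes), and ran from 0 (without WT replicate 1) to 7 (without 1b-/- replicate 1). Syn2 was not called without WT replicate 2 either. A lone library left in a group was assumed to vary like the other group. Removals in the homozygous round thus hide the spread within the reduced group, and calls made after them are no support. The count for the difference of the changes, 24, ran from 18 to 28. Signs turned in 5 results, none of which passed the threshold. Erc1 in 1b+/- (-0.037) became 0.0104 with sex as a term and ran from -0.0931 to 0.0104 with libraries left out, and Sv2c in 1b+/- (-0.15) from -0.242 to 0.033. In 1b-/- Pclo (0.22) ran from -0.0395 to 0.5397 and Stx1a (-0.28) from -0.664 to 0.036. Stx7 in 1b-/- (-0.0018) became 0.0045 with DESeq2 and with RLE factors, 0.0054 with no filter and 0.0104 with sex as a term, and ran from -0.0781 to 0.0831. Over 38 results on named members, 490 of 551 alternative values kept direction and side of the threshold, 45 passed it, 4 lost it and 12 turned sign. Among these values the sex term is no separate check, since it repeats the removal of 1b+/- replicate 4 or 1b-/- replicate 1. All 156 alternative values of the ratios moved by less than the spread between mice. Leaving out 1 library cannot move a ratio by more than this spread, so for the removals that outcome was fixed in advance. The causes were not tested. No paired analysis was possible because replicate numbers follow accession order only. With 2 mice a group, the homozygous design seldom detects changes under 2-fold.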
